A study of Homo sapiens with 10 samples.

Results

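N6-methyladenosine (m6A) peaks were examined in 9 genes of epithelial adhesion, the laminin basement membrane and its intracellular anchor, in 5 human colon cancer cell lines. The members were CDH1, CDH17, EPCAM, CD44, ITGB4, LAMA5, LAMB3, PLEC and ZEB1. A peak belonged to a gene when its summit lay in a fixed hg19 span of that gene, given to the nearest kb. By this rule 49 peaks were found among the 38106 of the 5 deposited lists, and they fell in 5 of the 9 genes. In the study, antibody-enriched RNA (MeRIP, here IP) and unenriched input of each line were sequenced, 1 library of each kind per line. The groups were the lines HCT116, HT29 and HCT15, labelled colorectum, and COLO320DM and COLO205, labelled colon, with no treatment in the labels. No replicate was available, so every difference compares single libraries and no p-value was computed.

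m6A is the commonest internal modification of mRNA. It is laid down by a nuclear methyltransferase complex, read by YTH-domain proteins that alter splicing, translation and decay, and is concentrated around stop codons and in unusually long exons. Adhesion genes carry several roles: cadherins and EPCAM join neighbouring epithelial cells, CD44 and the integrin chain ITGB4 bind the matrix, laminin chains build that matrix, and plectin ties it to the cytoskeleton. ZEB1 is the counterpart, a transcription factor that represses CDH1 when epithelial cells take on mesenchymal traits.

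List length was 9998 peaks for COLO205, 9418 for HCT116, 8941 for HT29, 8832 for COLO320DM and 917 for HCT15. IP reads and local input behind each peak were recovered for the 4 long lists. Recovered depth lay between 1.38 and 2.99 M reads (M for mega) in the IPs and between 2.24 and 5.41 M reads in the inputs of these 4 lines. Fold means the authors' enrichment of the summit over its local background. Its 95% interval covers the counting error of the IP reads only.

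The genes differed sharply in peak number. PLEC held 39 of the 49 peaks, ZEB1 held 4, CDH1 held 3, EPCAM held 2 and CD44 held 1. The spans of CDH17, ITGB4, LAMA5 and LAMB3 held 0 peaks in all 5 lists. By line, COLO320DM had 20 member peaks, HCT116 had 15, COLO205 had 10, HT29 had 4 and HCT15 had 0. Without PLEC the counts were 3, 3, 2, 2 and 0 in the same order, so the spread between the long lists came from that gene.

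**Figure D1:**
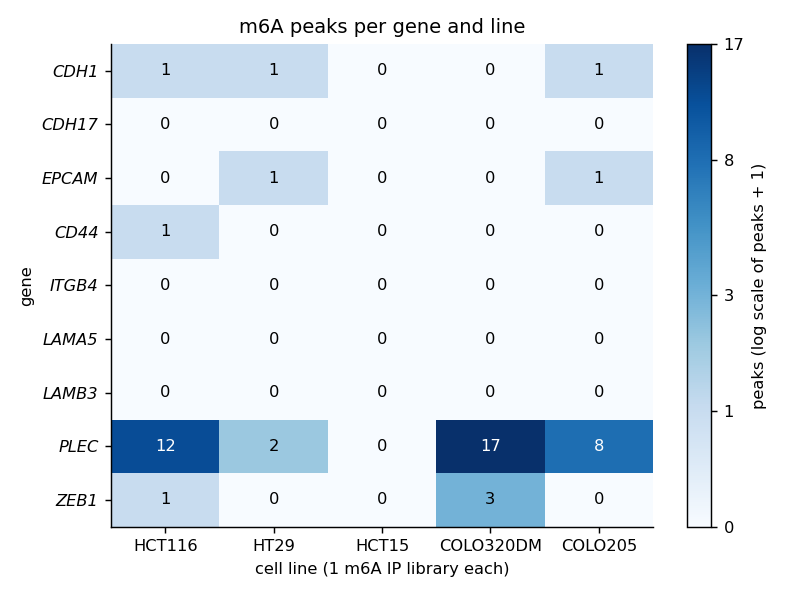
Number of m6A peaks in each gene span (rows) and cell line (columns), 1 IP library per line, with darker cells for more peaks. PLEC holds 17 peaks in COLO320DM and 12 in HCT116, and 4 genes are empty in every line.

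Member peaks made up 0.163% of the HCT116 list on chromosomes 1 to 22, X and Y (exact Clopper-Pearson 95% interval 0.0912% to 0.269%). The share was 0.0453% in HT29 (0.0123% to 0.116%), 0.232% in COLO320DM (0.141% to 0.357%) and 0.102% in COLO205 (0.0488% to 0.187%). The intervals of HT29 and COLO320DM did not overlap, although peaks of 1 gene are not independent. In HCT15, 0 of 905 peaks were members, which allows a share of up to 0.331% by the limit of 3 counts over the total and up to 0.407% by the exact interval. Both limits are above the share in each of the other 4 lists, so a shortfall in HCT15 was not detectable at this list length.

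CDH1 encodes E-cadherin, the calcium-dependent adhesion molecule of adherens junctions. Its span is chromosome 16 from 68771000 to 68870000, on the plus strand. A single region near the 3′ end carried a peak in HCT116, HT29 and COLO205, and no CDH1 peak was listed in COLO320DM or HCT15. The merged region ran from 68867270 to 68867459, and the 3 summits, at 68867386, 68867384 and 68867384, lay within 2 nt of each other, 97.4% of the way along the span.

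The CDH1 fold was 7.37 in HCT116 (4.64 to 11.2), from 20 IP reads over 3 local input fragments. It was 4.46 in HT29 (3.08 to 6.28), from 31 IP reads over 9 input fragments. It was 8.02 in COLO205 (5.73 to 10.9), from 38 IP reads over 7 input fragments. HT29 was the lowest in fold, and its interval overlapped those of both other lines. Within their own lists these folds stood at the 81.2nd percentile in HCT116, the 17.5th in HT29 and the 80.6th in COLO205. Per M reads, HT29 had 14.6 IP reads and 2.90 input fragments at this summit, HCT116 had 14.5 and 1.34, and COLO205 had 12.7 and 1.29. With the error of the input counted too, IP reads over background in HT29 were 0.511 times those in COLO205 (95% interval 0.171 to 1.53), a difference within counting error.

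EPCAM is a homophilic adhesion molecule of epithelial cells. In its span, chromosome 2 from 47596000 to 47615000 on the plus strand, HT29 and COLO205 shared 1 region near the 3′ end. The HT29 peak, from 47613716 to 47613791, had a fold of 5.67 (3.83 to 8.11) from 28 IP reads over 6 input fragments. The COLO205 peak, from 47613708 to 47613796, had a fold of 8.10 (5.35 to 11.8) from 25 IP reads over 4 input fragments. The summits were 10 nt apart and the intervals overlapped. HCT116, HCT15 and COLO320DM listed no EPCAM peak.

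CDH17, the liver-intestine cadherin, is a marker of intestinal epithelium. No peak had its summit in the span, chromosome 8 from 95139000 to 95230000 on the minus strand. The nearest was a COLO205 peak 1476 nt beyond the 3′ edge, with a fold of 5.78 from 6 IP reads.

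CD44, the hyaluronan receptor, has many variant exons and marks stem-like cells in colon cancer. Its span is chromosome 11 from 35160000 to 35254000, on the plus strand. Only the HCT116 list had a peak there, from 35172623 to 35172711, with a fold of 8.66 (4.90 to 14.4) from 13 IP reads over 1 input fragment. It lay 13.5% of the way along the span, unlike the 3′ peaks of CDH1 and EPCAM. A COLO205 peak had its summit 163 nt before the 5′ edge, with a fold of 4.29 from 4 IP reads, and so was not a member.

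ZEB1 spans chromosome 10 from 31607000 to 31819000 on the plus strand. Its peaks were in COLO320DM and HCT116. Near the 3′ end both lines had a peak, with summits 30 nt apart. COLO320DM had a fold of 5.12 there (3.36 to 7.52), from 24 IP reads over 6 input fragments. HCT116 had a fold of 6.74 (3.08 to 13.5), from only 6 IP reads with the local background at the genome mean. This HCT116 peak was the only member peak without a local input fragment.

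COLO320DM had a pair of further ZEB1 peaks. One ran from 31810588 to 31810723, at 96.1% of the span, with a fold of 9.11 (5.26 to 14.9) from 14 IP reads over 1 input fragment. The other ran from 31607147 to 31607565, with its summit 542 nt inside the 5′ edge, and had a fold of 7.29 (3.94 to 12.6) from 11 IP reads over 1 input fragment. In RefSeq on GRCh38.p14 the long non-coding gene ZEB1-AS1 overlaps the start of ZEB1. The lists give no strand, so reads of both genes cannot be told apart at that peak.

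By list, CDH1 or EPCAM peaks occurred in HCT116, HT29 and COLO205, and ZEB1 peaks in COLO320DM and HCT116. HCT116 was thus the only list with a peak in both CDH1 and ZEB1. A peak needs both transcript and methylation, so its absence does not tell a low transcript level from a lack of m6A.

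**Figure D2:**
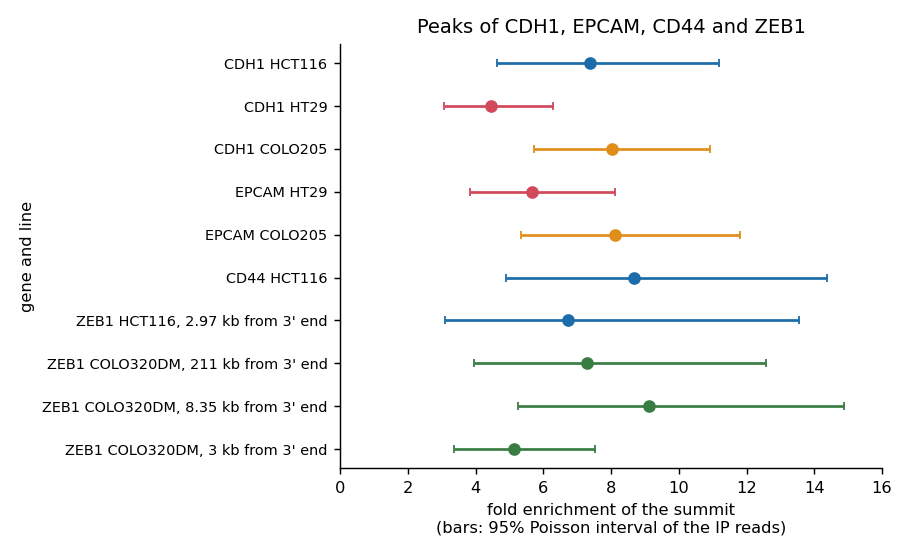
Fold enrichment (horizontal axis) of the 10 member peaks outside PLEC, by gene and line, with bars for the 95% Poisson interval of the IP reads. The HT29 peak of CDH1 is the lowest at 4.46, and all intervals for the same gene and position overlap.

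The matrix and hemidesmosome genes other than PLEC had no peaks. ITGB4, the integrin chain that nucleates hemidesmosomes, spans chromosome 17 from 73717000 to 73754000, and the nearest summit, in COLO205, was 14.4 kb outside it. LAMA5, a laminin alpha chain of basement membranes, spans chromosome 20 from 60884000 to 60943000, and the nearest summit, in COLO320DM, was 9.65 kb outside. LAMB3, a beta chain of the laminin that hemidesmosomes bind, spans chromosome 1 from 209788000 to 209826000, and the nearest, in HT29, was 23.4 kb outside. Whether these transcripts were present could not be read from the lists, which show input only beneath peaks.

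The fewest IP reads of a listed peak were higher where local input was higher, and they were close between the 4 long lists. At 1 local input fragment the fewest IP reads of any listed peak were 5 in COLO205 and 6 in the other 3 long lists. At 10 input fragments the fewest were 18, 20, 19 and 17 in the order HCT116, HT29, COLO320DM and COLO205. At 20 they were 29, 31, 31 and 28 in that order.

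PLEC encodes plectin, a giant linker that ties keratin filaments to integrin ITGB4 at hemidesmosomes. Its last exons are unusually long. The span is chromosome 8 from 144989000 to 145051000, on the minus strand, so its 3′ end has the low coordinates. COLO320DM had 17 PLEC peaks, HCT116 had 12, COLO205 had 8, HT29 had 2 and HCT15 had 0.

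Of the 39 PLEC peaks, 37 had their summit within 11 kb of the 3′ end, between 1.68 and 10.9 kb from it. In HCT116 the 12 peaks there covered 4622 nt and in COLO320DM the 15 peaks covered 4760 nt, against 3149 nt for 8 peaks in COLO205 and 274 nt for 2 peaks in HT29. The remaining pair lay farther upstream, 17.4 and 18.4 kb from the 3′ end, and was listed in COLO320DM alone. The first of them had the highest PLEC fold of any list, 6.80 (4.23 to 10.4), from 19 IP reads over 3 input fragments. The highest PLEC fold was 5.21 in COLO205, 4.04 in HCT116 and 2.34 in HT29.

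**Figure D3:**
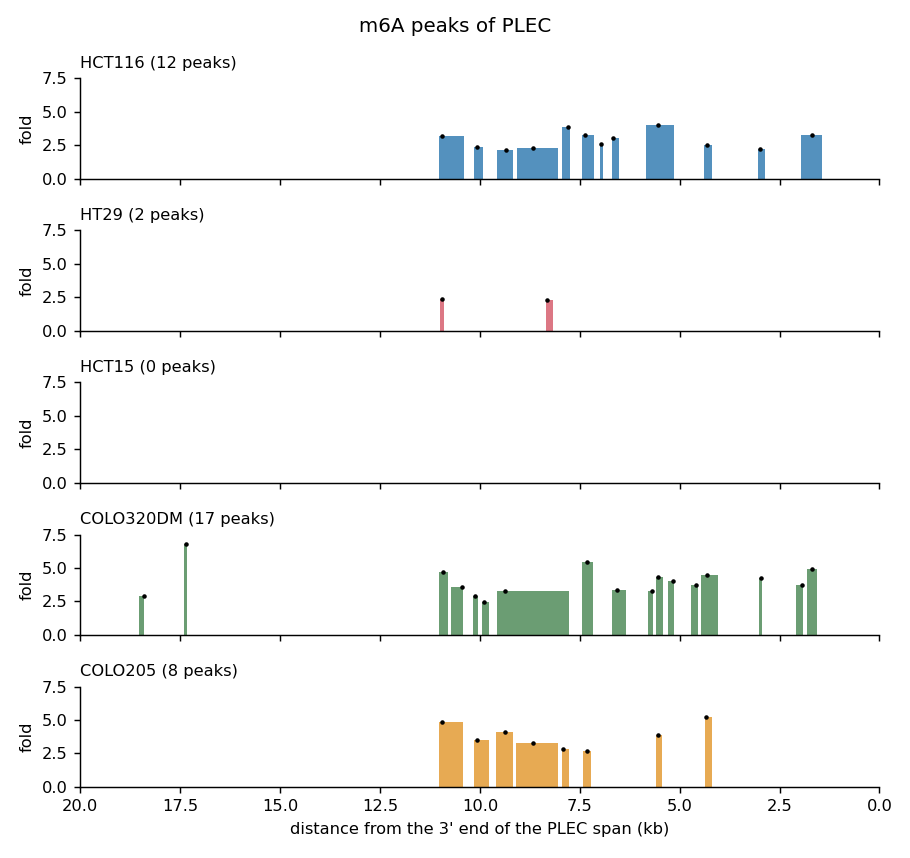
Peaks of PLEC in each line, by distance from the 3′ end of the span in kb (horizontal axis, 3′ end at the right) and fold (vertical axis), with each bar as wide as its peak and a dot at the summit. Peaks crowd into the last 11 kb in 4 lines, and COLO320DM has 2 more upstream.

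The peaks of all genes merged into 19 regions, 13 of them in PLEC. Of the PLEC regions, 2 were found in 4 lists, 4 in 3 lists, 3 in 2 lists and 4 in 1 list. CDH1 gave the only other region found in 3 or more lists.

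The PLEC region farthest upstream among those in 4 lists ran from 144999407 to 145000031. The best fold there was 4.85 in COLO205, 4.67 in COLO320DM, 3.19 in HCT116 and 2.34 in HT29. The 4 best peaks had their summits between 144999934 and 144999947. The other region in 4 lists, from 144996754 to 144998586, was 1833 nt long because a COLO320DM peak of 1792 nt bridged several shorter ones. Its best folds were 4.11, 3.28, 3.86 and 2.31 in the same order of lines. Their summits lay up to 1582 nt apart, so these folds do not belong to 1 shared site.

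The PLEC regions in 3 lists were held by HCT116, COLO320DM and COLO205 and missing from HT29. From 144993039 to 144993462 the best folds were 2.50 in HCT116, 4.46 in COLO320DM and 5.21 in COLO205. From 144994136 to 144994833 they were 4.04, 4.33 and 3.85 in the same order. From 144996150 to 144996448 they were 3.24, 5.48 and 2.702, and from 144998762 to 144999168 they were 2.38, 2.93 and 3.51. No line was highest in all of these regions.

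PLEC peaks combined low folds with many reads. Their median fold was 3.75 in COLO320DM, 3.68 in COLO205, 2.80 in HCT116 and 2.32 in HT29, against 5.23, 5.70, 5.11 and 5.67 over the whole lists. In percentiles of fold within their lists the PLEC medians were 14.5, 7.18, 4.68 and 0.323 in the same order. By −log10 p the medians were the 63.6th, 74.4th, 62.3rd and 23.1st percentile.

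PLEC peaks had a median of 28 IP reads over 11 input fragments in COLO320DM, 41.5 over 18 in COLO205, 60 over 30 in HCT116 and 50 over 30.6 in HT29. Whole lists had medians of 12, 9, 11 and 8 IP reads in the same order, and 1.46, 1.00, 1.05 and 0.24 input fragments. PLEC folds were thus ranked mostly against peaks with less local input, and ranks at equal input were not computed. The members outside PLEC had a median fold of 7.29 in COLO320DM (3 peaks), 8.06 in COLO205 (2 peaks), 7.37 in HCT116 (3 peaks) and 5.07 in HT29 (2 peaks).

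**Figure D4:**
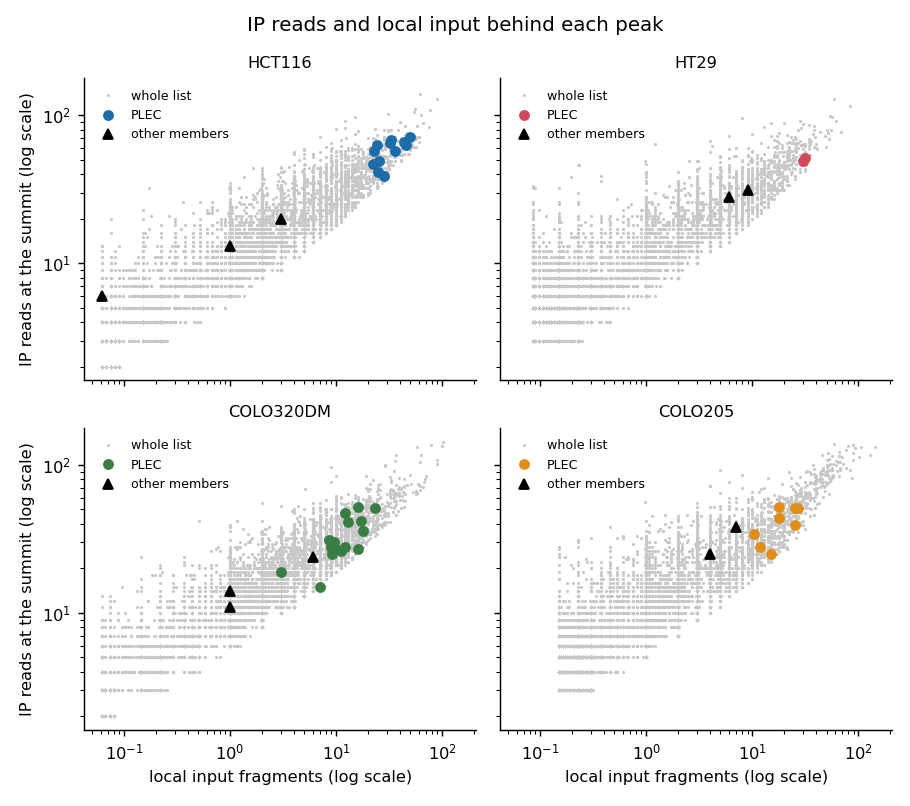
IP reads at the summit (vertical axis, log scale) against local input fragments (horizontal axis, log scale) for every peak of the 4 long lists (grey), PLEC peaks (coloured circles) and other members (black triangles). PLEC peaks lie at 3 to 50 input fragments, and the other members sit at 9 or fewer.

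PLEC enrichment was next compared between lines at matched sites, where summits of a pair of lists lay within 100 nt and each had at least 1 input fragment. Values here are IP reads over scaled input background, without a pseudocount, and intervals of the ratios count both IP and input. A site had to be listed in both lines, and neighbouring sites share 1 transcript, so sites are not independent. Ratios were also taken from reads and background summed over the sites of a pair. The interval of such a sum treats its sites as independent and can be too narrow. Ratios over matched sites of the whole lists were not computed. Whether the libraries differ in the same way outside these genes was therefore not tested. Between HCT116 and COLO320DM there were 8 sites, with ratios between 0.470 and 0.871 and a median of 0.631. HCT116 was the lower at all 8, but the interval at each site included 1, so no single site differed beyond counting error. Summed over the 8 sites the ratio was 0.639 (0.491 to 0.833).

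HCT116 over COLO205 gave ratios between 0.432 and 1.18 at 7 sites, with a median of 0.659. HCT116 was the lower at 6 of them and the higher at 1, and the interval excluded 1 at 2 of the 7. Summed over the 7 sites the ratio was 0.693 (0.538 to 0.892). COLO320DM over COLO205 gave ratios between 0.774 and 2.14 at 6 sites, lower at 4 and higher at 2, and each interval included 1. Their summed ratio was 1.05 (0.753 to 1.45). HT29 had only 1 matched PLEC site with each line, and it had an enrichment of 2.40 there. COLO320DM had 5.02 and COLO205 had 5.23 at that site, so the ratios of HT29 to them were 0.478 (0.233 to 0.978) and 0.459 (0.228 to 0.921). HCT116 had 3.30 there, and its ratio to HT29 was 1.37 (0.743 to 2.54), within counting error. Of 28 single-site ratios over all members, 4 had an interval that excluded 1, with no adjustment for their number.

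Local input at PLEC peaks also differed between lines. PLEC peaks had a median of 13.4 input fragments per M input reads in HCT116 and 9.86 in HT29, against 4.83 in COLO320DM and 3.33 in COLO205. Per M IP reads the medians were 43.5, 23.5, 19.0 and 13.9 in the same order. By median fold the order from high to low was COLO320DM, COLO205, HCT116 and HT29, the last from only 2 peaks. Input is also the denominator of the enrichment, so the measures are not independent, and the part of transcript level in the lower folds was not tested.

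In COLO320DM the 15 PLEC summits within one 10-kb window equalled the densest other window of the list, which also held 15. In HCT116, 4 other non-overlapping windows held more than the 12 of PLEC. In COLO205, 45 windows held more than the 8 of PLEC, and in HT29, 597 held more than 2. The densest other window began on chromosome 4 at 49104874 in HCT116 and at 49102723 in COLO205. It began on chromosome 21 at 10791102 in HT29 and on chromosome 10 at 129896528 in COLO320DM. These windows were not assigned to transcripts, so the ranks do not compare PLEC with other genes.

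Most peaks lay towards 3′ ends. PLEC peaks lay from 70.3% of the span onwards, and the CDH1, EPCAM and 3′ ZEB1 peaks from 93.5% onwards. The exceptions were the CD44 peak and the 5′ ZEB1 peak. Exons and stop codons were not assigned, and a span edge can be off by up to 1 kb.

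**Figure D5:**
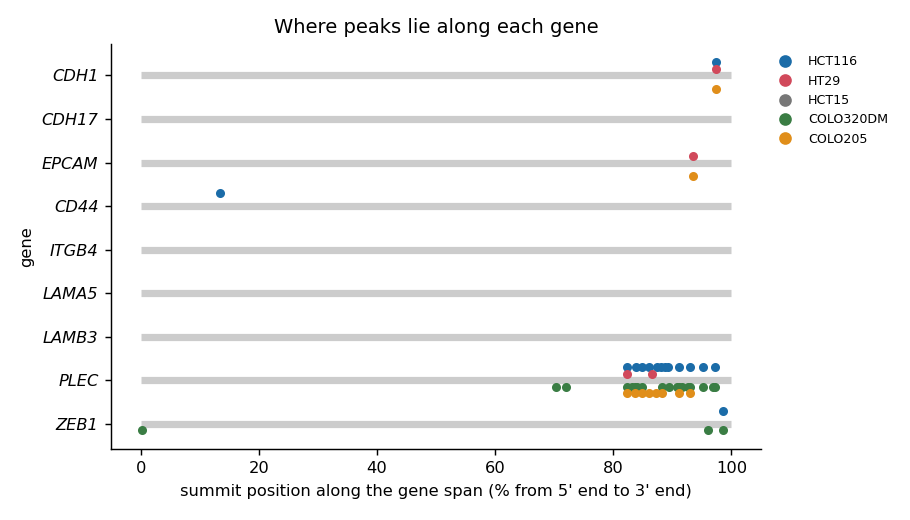
Summit position of each of the 49 member peaks along its gene span (grey bar), in % from the 5′ to the 3′ end, coloured by line. Peaks of CDH1, EPCAM and PLEC sit towards the 3′ end, CD44 has 1 peak at 13.5%, and 4 genes have none.

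Member peaks were set beside their whole lists. A peak of at least 1 other list overlapped 13 of 15 member peaks in HCT116, where 61.6% of all peaks were so overlapped. It overlapped 4 of 4 in HT29 (list 63.7%), 15 of 20 in COLO320DM (list 52.9%) and 10 of 10 in COLO205 (list 65.1%). Median widths of members were 200, 93, 173 and 192.5 nt in the same order, against 117, 129, 114 and 126 nt over the lists. Wider peaks meet others more easily under a rule of 1 nt, and overlap at equal width was not tested. Of the 20 COLO320DM members, HCT116 peaks met 15 (14 of them in PLEC), where they met 42.0% of the whole COLO320DM list. COLO205 peaks met 8 (all in PLEC; list 33.9%) and HT29 peaks met 2 (both in PLEC; list 27.1%).

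A −log10 q of at least 5 was reached by 12 of 15 member peaks in HCT116 (list 53.9%), 2 of 4 in HT29 (list 59.5%), 15 of 20 in COLO320DM (list 54.6%) and 8 of 10 in COLO205 (list 59.5%). At least 1 local input fragment lay beneath 14 of 15 in HCT116 (list 58%), 4 of 4 in HT29 (list 38.7%), 20 of 20 in COLO320DM (list 62.2%) and 10 of 10 in COLO205 (list 51.4%). Most members in these counts are neighbouring PLEC peaks that share a transcript, so they are not independent.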

How the data were processed

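Total RNA (about 300 µg) of each line was fragmented to about 100 nt and 10% was kept as input, per the labels' protocols. Build hg19 and the tools cutadapt, FastQC, BWA and MACS2 are named without version or order in the submitters' processing notes. Each of the authors' deposited lists holds 1 line, with a fold enrichment (a ratio), a −log10 p and a −log10 q per peak. The deposited score column was not used, and positions are printed counting from 1.

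Whole IP reads and the local background were solved from fold and −log10 p under the Poisson model of MACS2 (pseudocount 1). All peaks of the 4 long lists met their −log10 p within 0.001. HCT15 had no member and was not solved. An input fragment is the background step set by the ratio of IP to input depth, the control being taken to be the line's input. Its number need not be whole (8.47 at 1 PLEC peak of COLO320DM), since the background can be averaged over up to 10 kb. Intervals that count input are therefore approximate. Depths assume a genome of 2.7 Gb. Intervals cover counting error only. Peaks overlapping by at least 1 nt were merged. The steps were tested on simulated data.

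Strand came from the RefSeq promoter table for 4 members and from general knowledge for the other 5. All members were named, with every region in 3 or more lists and the highest fold of each gene and line. No hg19 annotation or genome was used, so exons, motifs, peak sequences and a planned list of further adhesion genes were not analysed here. Members, lists and comparisons were chosen with earlier results of these data known, and matched sites after the peaks had been seen. Software was scipy 1.17.1, numpy 2.4.6 and pandas 2.3.3 under Python 3.11.15, with bedtools 2.31.1 and matplotlib 3.10.9.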

Additional observations from a re-analysis of the deposited data

How the results depend on the processing

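Of 95 alternative values for 27 results, 65 stayed within 1.5 times the reported count or within the 95% interval of the reported value, which is wide for medians of few peaks (the whole range for the 4 in HT29), and 30 did not. Some of the 65 could not have come out otherwise. Filters of the HCT15 list start from 0 members, and the 8638 strongest peaks are the whole COLO320DM list. Leaving out HCT15 cannot change the shared regions. Leaving out PLEC was added after the data were seen. Member peaks in HCT116, HT29, COLO320DM and COLO205 numbered 4, 2, 11 and 5 at a fold of at least 4, and 3, 2, 3 and 2 without PLEC. They numbered 1, 0, 2 and 1 among the 905 strongest peaks of each list. Requiring a −log10 q of 5 or more left 2 in HT29. Among all peaks with a fold of at least 4, members were 0.0617% in HCT116 and 0.0255% in HT29, against 0.163% and 0.0453% of the whole lists. They were 0.176% in COLO320DM and 0.0576% in COLO205, against 0.232% and 0.102%. Regions in 3 or more lists, 7 as reported, numbered 3 with reciprocal overlap of 50%, 1 at a fold of at least 4 and 1 without PLEC. Leaving out 1 list gave between 2 and 7. The share of COLO320DM members overlapped by another list was 25.0% with reciprocal overlap and 45.0% with summits within 100 nt, against 75.0% as reported. The share over the whole COLO320DM list was not computed under these 2 rules. Without PLEC the median fold was 7.37 in HCT116, 7.29 in COLO320DM and 8.06 in COLO205, and the median percentile of fold was 81.2, 79.995 and 81.02. In HT29 the median fold without PLEC was 5.07 and the median percentile was 35.5, from 2 peaks. Ranked by −log10 p, the median percentile was 78.8 in COLO205, 66.1 in COLO320DM, 48.4 in HT29 and 72.9 in HCT116, against 11.2, 29.5, 8.91 and 9.03 by fold. In HT29 and COLO205 the value by −log10 p was over 5 times that by fold and still lay within that interval. The causes were not tested. Depth and the single library per line limit all comparisons.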
